A study of Mus musculus with 20 samples.

Results

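Transcription factors that establish, keep or mark the B cell state were followed through single-cell RNA sequencing (scRNA-seq) of B cell leukaemias and of the tissues around them. The set held 10 of the 31053 genes counted and was a list of names, namely Pax5, Ebf1, Spib, Bach2, Pou2af1, Zbtb32, Bhlhe41, Ikzf3, Irf8 and Tcf4. Of these, Bhlhe41 and Zbtb32 were read as factors of B-1-like cells. The libraries came from 13 transgenic mice labelled C57BL/6N, with 5 spleens of Eµ-PRMT5 mice, 4 spleens and 3 lymph nodes of Eµ-TCL1 mice, and 4 spleens and 4 lymph nodes of Eµ-PRMT5/TCL1 mice, 20 libraries in all. The transgenes were the human PRMT5 or TCL1 gene, or both, behind a V-region promoter and the enhancer of the immunoglobulin heavy chain, which act in B lineage cells. Every group carried at least 1 transgene, so that no comparison had a non-transgenic arm. The nodes came from 7 of the mice whose spleens were also sequenced, and a node and a spleen of one mouse were not independent. Tissues were taken when an animal met the criteria for euthanasia, and the ages were not given in the sources used here. The study names more than 1 founder of the Eµ-PRMT5 mice and crossed more than 1 of their lines to Eµ-TCL1 mice. The title of Eµ-PRMT5 spleen 3 carries the name of a founder, and the labels of the other mice with this transgene name no line.

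Cells were unselected, and each class was set by counts of unique molecular identifiers (UMIs), a UMI being 1 captured transcript end. A B cell had at least 3 UMIs of Cd79a and Cd79b together, none of Cd3d, Cd3e or Cd3g, and fewer than 20 of Jchain, the joining chain of secreted antibody. A plasma cell had at least 20 UMIs of Jchain and at least 2 of Derl3 and Sdc1 together. None of the 10 factors entered these rules. They gave 30890 B cells and 2588 plasma cells among 84231 kept cells, with 195 to 5136 B cells in a library. For each class the UMIs of a library were summed over its cells and a level was given in CPM, the UMIs of a gene per 1000000 UMIs of that class, so that the library, not the cell, was the replicate. Such a sum does not tell fewer cells with a transcript from fewer transcripts per cell. Replicate numbers below only name libraries.

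Pax5 and Ebf1 commit progenitors to the B lineage, switch on surface and signalling genes of B cells and hold down genes of other lineages. Spib, an Ets factor, Irf8, an interferon regulatory factor, Tcf4, an E protein, and Ikzf3, the Ikaros family member Aiolos, act with them in mature B cells. Pou2af1 is the coactivator that octamer-binding Oct factors recruit in B cells, and it is kept in plasma cells. Bach2 represses the plasma cell regulator Prdm1. When a B cell becomes a plasma cell, Prdm1 in turn represses Pax5, Spib and other genes of the B cell state. Bhlhe41 sustains B-1 cells, the Cd5-bearing, self-renewing B cells to which the leukaemia of Eµ-TCL1 mice is often compared, and Zbtb32 is a zinc finger factor found in B-1 and memory B cells.

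Promoters of 8 members were read from RefSeq (assembly GRCm38.p6, 250 bases before to 50 bases after each annotated start, 11 promoters), and 3 of them are shown because their genes carry the differences described below. Spib and Pou2af1 were the members whose levels did not overlap between Eµ-PRMT5/TCL1 and Eµ-TCL1 lymph nodes, as those of 6.29% of genes did not, and Spib fell and Pou2af1 rose in plasma cells. Bhlhe41 is a B-1 factor whose B cell level was lowest in Eµ-PRMT5 spleen 1. The Spib promoter lies on the minus strand at chr7:44532022-44532321, that of Pou2af1 on the plus strand at chr9:51213440-51213739 and that of Bhlhe41 on the minus strand at chr6:145865371-145865670. Each is written 5′ to 3′, in lower case, with matches to a searched motif in capitals.
Spib: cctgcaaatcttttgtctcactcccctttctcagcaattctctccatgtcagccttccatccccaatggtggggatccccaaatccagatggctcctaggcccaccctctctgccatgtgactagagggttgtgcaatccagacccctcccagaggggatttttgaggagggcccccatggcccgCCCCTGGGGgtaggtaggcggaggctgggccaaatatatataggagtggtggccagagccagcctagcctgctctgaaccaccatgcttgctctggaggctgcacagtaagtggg
Pou2af1: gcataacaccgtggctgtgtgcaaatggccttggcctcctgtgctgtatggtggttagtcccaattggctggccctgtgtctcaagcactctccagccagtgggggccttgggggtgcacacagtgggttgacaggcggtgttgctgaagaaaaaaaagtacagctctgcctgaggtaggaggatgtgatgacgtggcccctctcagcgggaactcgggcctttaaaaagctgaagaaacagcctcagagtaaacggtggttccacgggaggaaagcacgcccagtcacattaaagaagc
Bhlhe41: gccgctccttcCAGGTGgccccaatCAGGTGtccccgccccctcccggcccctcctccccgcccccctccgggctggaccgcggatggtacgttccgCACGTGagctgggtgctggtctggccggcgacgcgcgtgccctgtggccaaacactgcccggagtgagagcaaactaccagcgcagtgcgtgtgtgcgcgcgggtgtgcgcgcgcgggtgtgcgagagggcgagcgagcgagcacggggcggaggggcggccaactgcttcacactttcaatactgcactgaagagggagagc

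The motifs, searched on both strands, were the octamer ATTTGCAT (in 1.74% of 32851 RefSeq promoters of this length), the Ets site GAGGAAGT (3.2%), the composite Ets and interferon regulatory factor site GGAANNGAA (8.24%), the core of the Prdm1 site AGTGAAAG (1.32%), the core of the Ebf1 palindrome CCCNNGGG (13.7%), the E protein E box CAGGTG (20.2%), the E box CACGTG that Bhlhe40 and Bhlhe41 bind (7.15%) and TGAGTCA, of the Bach kind (5.2%). The Spib promoter held the Ebf1 core in 2 overlapping placements, which begin 65 and 64 bases before the start. In the Bhlhe41 promoter CAGGTG began 239 and 225 bases before the start and CACGTG 153 bases before it. No searched motif was found in the Pou2af1 window. Among the promoters not shown, Bach2 had 1 match, of the composite site, Irf8 had an Ebf1 core in 1 promoter and an E box in another, and Pax5, Ebf1 and Zbtb32 had none. These are matches of letters in a short window, and an absent match says only that these letters are not there.

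Eµ-PRMT5 spleens 1 and 4 stood apart from the other libraries, in ways that differ by member and are described with the members they touch. The libraries held 9348094 to 72440894 UMIs, and the UMIs summed over B cells ran from 1463060 to 33435504. Of the listed B cell markers, Ms4a1, Cd22, Cd37, H2-Aa and Ly6d were detected in the B cells of all 20 libraries, which sets no level. Ms4a1 ran from 64.5 CPM in Eµ-PRMT5 spleen 4 to 1476 CPM (median 559.5), and its lowest value lay within the range of plasma cells (35.1 to 247 CPM of all UMIs). Cd3d, Cd3e and Cd3g were at 0 by the rule, and the 6 myeloid markers summed to 0 to 3092 CPM. In several libraries many Cd79-positive cells held Cd3g UMIs and were left out, up to 1988 cells in Eµ-PRMT5/TCL1 lymph node 4 and 1804 in Eµ-PRMT5 spleen 4, and a wider gate that asked only for 5 times more Cd79 than Cd3 UMIs was run beside the main one. Of 79815 distinct barcodes 4279 were kept in more than 1 library, and no pair of libraries shared more than 68, against 64.6 given by random draw.

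All 10 factors were detected in the B cells of all 20 libraries, and they separated B cells from T cells to different degrees. T cells had at least 2 UMIs of Cd3d, Cd3e and Cd3g together and none of Cd79a or Cd79b. Cells with a Cd79 UMI were thus left out of this class. The T cells, which should lack Pax5, Ebf1 and Spib, gave the background. Their median depth was 2774.5 to 9577.5 UMIs a cell in the libraries, against 4267 to 16712.5 UMIs in B cells. Pax5 stood at 20.2 to 109 CPM (median 65.6) in B cells and at 0 to 0.949 CPM (median 0) in T cells. Ebf1 was at 3.33 to 539 CPM (median 222) in B cells against 0 to 1.10 CPM (median 0.180) in T cells. For Spib the B cell range was 93.5 to 315 CPM (median 187) and the T cell range 0 to 1.95 CPM (median 0.393). These 3 had the smallest maxima of the members in T cells, and their ranges did not overlap between the classes.

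Bhlhe41, Pou2af1, Tcf4 and Zbtb32 were also low in T cells, reaching 5.48, 12.3, 12.8 and 33.1 CPM in the highest library. Bach2 and Ikzf3 were not confined to B cells. T cells held Bach2 at 3.89 to 174 CPM (median 89.5), against 5.95 to 167 CPM (median 58.3) in B cells, and Ikzf3 at 62.0 to 178 CPM (median 97.5), against 110.2 to 418 CPM (median 289). Irf8 reached 76.9 CPM in T cells, against 70.3 to 629 CPM (median 201) in B cells. With every cell thinned to 1000 UMIs, the median over libraries of the share of B cells with a UMI was 5.70% for Pax5, 19.6% for Ebf1 and 16.2% for Spib, and the median share of T cells was 0 for each. The same shares for Bach2 were 6.25% of B cells and 11.1% of T cells. Before thinning they were 33.7%, 72.7%, 63.4% and 35.5% of B cells for Pax5, Ebf1, Spib and Bach2.

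Pax5, the commitment factor, was among the steadier members across B cells. In Eµ-PRMT5 spleens 1 to 5 it stood at 83.0, 63.3, 60.7, 20.2 and 69.4 CPM. Eµ-TCL1 spleens 1 to 4 held 67.8, 48.8, 51.0 and 44.9 CPM, and Eµ-PRMT5/TCL1 spleens 1 to 4 held 88.7, 109, 54.7 and 69.2 CPM. The groups overlapped, and Eµ-PRMT5 spleen 4 was the lowest of all libraries. In the lymph nodes Pax5 was at 75.2, 48.0 and 43.5 CPM in Eµ-TCL1 mice and at 72.6, 78.4, 54.1 and 80.6 CPM in Eµ-PRMT5/TCL1 mice.

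Ebf1, which acts upstream of and together with Pax5, varied far more. Its level was 539, 332, 199, 3.33 and 156 CPM in Eµ-PRMT5 spleens 1 to 5. The Eµ-TCL1 spleens were at 211, 297, 255 and 185 CPM and the Eµ-PRMT5/TCL1 spleens at 252, 152, 186 and 102 CPM. Both the highest and the lowest library of the series were thus Eµ-PRMT5 spleens. Lymph nodes lay at 321.9, 184 and 233 CPM in Eµ-TCL1 mice and at 356, 237, 256 and 68.7 CPM in Eµ-PRMT5/TCL1 mice.

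Eµ-PRMT5 spleen 4, the lowest library for Pax5 and Ebf1, was the lowest of the 13 spleens for 32.3% of all 11541 genes tested. It was so for 14 of 19 surface and signalling genes known as Pax5 or Ebf1 targets, 73.7% of them. For members the count was 5 of 10 (Pax5, Ebf1, Bach2, Pou2af1 and Ikzf3), and for other B-lineage regulators 9 of 19 (47.4%). These counts are of few genes, and their shares lie nearer to that of all genes than the share of the targets does. Among the members, Pax5 and Ebf1 had already set this spleen apart. The spleen was lowest for 0 of 8 plasma cell genes and 1 of 8 B-1 markers. Ranked from the lowest of the 20 libraries, Prdm1 was at 2, Irf4 at 5, Slamf7 at 9 and Creb3l2 at 15. Mzb1 and Xbp1 were at 17, Edem1 at 19 and Sec11c at 20. Not all Pax5 or Ebf1 targets were low, with Vpreb3 at 15 and Blnk at 19. Eµ-PRMT5 spleen 4 was the highest of the 13 spleens for 2 of the 8 plasma cell genes, and for 1172 of all 11541 genes. Ebf1 was found in 40 of its 800 B cells (5.00%), although its B cells were the deepest of any library, with a median of 16712.5 UMIs. Spib was found in 70.1% of the same cells and Pax5 in 27.2%. After thinning to 1000 UMIs Ebf1 was found in 4 of them. Ms4a1, which encodes a surface protein of B cells, was at 64.5 CPM there. The immunoglobulin heavy chain gene Ighv12-3 made up 95.1% of its Ighv UMIs. Under the wider gate, which added 1134 cells, Ebf1 was at 2.24 CPM and Pax5 at 21.7 CPM.

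Spib had a narrower spread. It was at 224, 201, 179, 115 and 186 CPM in Eµ-PRMT5 spleens 1 to 5. Eµ-TCL1 spleens 1 to 4 held 182, 189, 181 and 93.5 CPM, and Eµ-PRMT5/TCL1 spleens 231, 215, 302 and 315 CPM. All 4 Eµ-PRMT5/TCL1 spleens lay above all 4 Eµ-TCL1 spleens, groups that did not overlap for 3.28% of genes either, and the former overlapped the Eµ-PRMT5 spleens. In lymph nodes Spib was at 121, 109 and 95.6 CPM in Eµ-TCL1 mice and at 235, 146, 309.6 and 261 CPM in Eµ-PRMT5/TCL1 mice, again without overlap, as for 6.29% of genes. EdgeR called Spib in neither tissue (adjusted p = 1 and 0.580), and across tissues the genotypes overlapped, since Eµ-PRMT5/TCL1 node 2 lay below 3 of the 4 Eµ-TCL1 spleens. Group means ran from 108 ± 12.7 CPM (SD, n = 3) in Eµ-TCL1 nodes through 161 ± 45.5 CPM (n = 4) in their spleens, 181 ± 40.9 CPM (n = 5) in Eµ-PRMT5 spleens and 238 ± 68.5 CPM (n = 4) in Eµ-PRMT5/TCL1 nodes to 266 ± 50.1 CPM (n = 4) in Eµ-PRMT5/TCL1 spleens. Every step between neighbours in this order was smaller than the sum of their SDs.

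Ikzf3 and Tcf4 overlapped between all pairs of groups. Ikzf3 was at 110.2 to 418 CPM (median 284) in spleens and 157 to 369 CPM (median 295) in nodes. Tcf4, which is also a factor of plasmacytoid dendritic cells, was at 137 to 358 CPM (median 267) in spleens and 147 to 456 CPM (median 308) in nodes. Of 6 markers of those dendritic cells, Cd209d was at 0 in B cells of all 20 libraries, and the highest library held 1.72 CPM of Siglech, 7.73 of Klk1, 20.3 of Cox6a2, 83.6 of Pacsin1 and 109 of Ccr9. Irf8 was more uneven, at 515, 213, 629, 191 and 144 CPM in Eµ-PRMT5 spleens 1 to 5, 291, 284, 274 and 149.7 CPM in Eµ-TCL1 spleens and 353, 136, 179.9 and 225 CPM in Eµ-PRMT5/TCL1 spleens. Nodes held Irf8 at 208, 193 and 168 CPM in Eµ-TCL1 mice and at 102, 355, 118 and 70.3 CPM in Eµ-PRMT5/TCL1 mice. Its 2 highest libraries were Eµ-PRMT5 spleens 3 and 1, and its 2 lowest were Eµ-PRMT5/TCL1 nodes 4 and 1.

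Pou2af1, the Oct coactivator, had its highest group means in Eµ-TCL1 mice, at 139 ± 17.7 CPM (SD, n = 4) in spleens and 128 ± 6.43 CPM (n = 3) in nodes. The means were 97.6 ± 49.0 CPM (n = 4) and 74.0 ± 12.1 CPM (n = 4) in the spleens and nodes of Eµ-PRMT5/TCL1 mice and 92.6 ± 36.9 CPM (n = 5) in Eµ-PRMT5 spleens. Its level was 127, 106, 103, 29.7 and 97.0 CPM in Eµ-PRMT5 spleens 1 to 5, where only spleen 4 was far below the others. It was 126, 153, 122 and 156 CPM in Eµ-TCL1 spleens and 96.2, 71.5, 56.1 and 167 CPM in Eµ-PRMT5/TCL1 spleens. Of the latter, spleens 1 to 3 lay below all Eµ-TCL1 spleens and spleen 4 above them all. In the nodes it was 135, 128 and 122 CPM in Eµ-TCL1 mice and 89.7, 77.3, 64.2 and 64.6 CPM in Eµ-PRMT5/TCL1 mice, without overlap.

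Bach2, the repressor of plasma cell fate, had one of the widest ranges. It was 167, 121, 165, 5.95 and 29.4 CPM in Eµ-PRMT5 spleens 1 to 5. Eµ-TCL1 spleens held 17.3, 98.1, 60.4 and 62.4 CPM and Eµ-PRMT5/TCL1 spleens 42.1, 63.6, 20.8 and 40.5 CPM. Spleens 1 to 3 of the Eµ-PRMT5 mice were thus above all Eµ-TCL1 spleens, and spleen 4 was below them all. In the nodes Bach2 was 95.0, 114 and 56.2 CPM in Eµ-TCL1 mice and 77.0, 42.3, 28.5 and 12.4 CPM in Eµ-PRMT5/TCL1 mice. Over the 13 spleens Bach2 and Ebf1 ranked alike in part, with Pearson's r 0.73 and Spearman's rho 0.55 on log2 CPM. Without Eµ-PRMT5 spleen 4 r was 0.49, and without Eµ-PRMT5 spleens 1 and 4 it was 0.31.

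The B-1-like factors Zbtb32 and Bhlhe41 were both at their lowest in Eµ-PRMT5 spleen 1. Zbtb32 was at 19.1, 342, 160.0, 76.0 and 282 CPM in Eµ-PRMT5 spleens 1 to 5. Its level was 363, 431, 92.1 and 202 CPM in Eµ-TCL1 spleens and 297, 289.6, 372 and 438 CPM in Eµ-PRMT5/TCL1 spleens. The highest T cell level of Zbtb32 was 33.1 CPM in Eµ-PRMT5 spleen 4, from 17 UMIs in 46 T cells, and the next was 18.1 CPM. The B cells of Eµ-PRMT5 spleen 1 lay between these values and above the T cells of their own library (8.53 CPM), and those of the other 19 libraries lay above both. In lymph nodes Zbtb32 was at 271, 345 and 171 CPM in Eµ-TCL1 mice and at 481, 176, 171 and 208 CPM in Eµ-PRMT5/TCL1 mice.

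Bhlhe41 was at 3.22, 69.0, 29.7, 65.4 and 74.2 CPM in Eµ-PRMT5 spleens 1 to 5, 66.6, 102, 84.9 and 79.4 CPM in Eµ-TCL1 spleens and 63.1, 86.5, 69.6 and 101 CPM in Eµ-PRMT5/TCL1 spleens. The nodes held 77.2, 97.6 and 136 CPM in Eµ-TCL1 mice and 99.3, 53.9, 67.1 and 101 CPM in Eµ-PRMT5/TCL1 mice. Apart from Eµ-PRMT5 spleens 1 and 3 every library held at least 53.9 CPM. In spleen 1 a Bhlhe41 UMI was found in 1.62% of 1297 B cells, against a median of 41.9% over the 20 libraries and 0.362% of the T cells of spleen 1. The T cell level was 0.914 CPM in that spleen, and the highest was 5.48 CPM in Eµ-PRMT5/TCL1 lymph node 1, from 2 UMIs in 63 T cells, with 2.33 CPM the next. The B cells of spleen 1 were thus above the T cells of every library but that node.

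Other genes also set the B cells of Eµ-PRMT5 spleen 1 apart. Of the 20 libraries they had the lowest levels of 3 of the 10 members (Zbtb32, Bhlhe41 and Tcf4), 5 of 8 plasma cell genes and 4 of the 8 listed B-1 markers, against 8.89% of all 11541 genes tested. Among these members Zbtb32 and Bhlhe41 had already set the spleen apart. Not all plasma cell genes were low, since Slamf7 (58.6 CPM) and Irf4 (163 CPM) ranked 19 and 18 from the lowest, and Xbp1 ranked 6. The B-1 markers at their lowest were Cd5 (2.38 CPM against a median of 32.1), Spn (9.53 against 37.5), Cd9 (43.7 against 462) and Cd300lf (7.85 against 75.5). Ctla4 (14.99 against 62.7 CPM) and Plac8 (577 against 1033 CPM) were the next to lowest, and Itgam (2.38 against 2.19 CPM) was near the median. Bhlhe40, a relative of Bhlhe41 on the same list, went the other way and was the highest of the 20 (316 against 64.5 CPM). Of 19 surface and signalling genes known as Pax5 or Ebf1 targets, spleen 1 was highest for 7 and lowest for 1, Napsa. Cd180 ranked 2, and Siglecg and Ms4a1 ranked 3, from the lowest of the 20 libraries. Of 19 other B-lineage regulators it was highest for 6 and lowest for 0. The next 2 genes, from the list of targets, were chosen after their values were seen. Spleen 1, the highest library for 14.1% of genes, had the highest levels of Cr2, the complement receptor of marginal zone and follicular B cells (85.1 against 1.85 CPM), and of Fcer2a, the Cd23 receptor of follicular B cells (174 against 0.566 CPM). It was also the highest for Ebf1 and Bach2 among the members. No single heavy chain V gene held a majority of the Ighv UMIs in this spleen, the leading one being Ighv5-6 with 43.8%. That is a share of UMIs and not of cells. By the V gene split described below, 15 B cells of spleen 1 counted as cells with Ighv5-6 and 776 as other cells. Among the other cells Ighv2-2 led, with 33.6% of their Ighv UMIs. Over the 13 spleens Bhlhe41 and Zbtb32 had a Pearson's r of 0.81 and a Spearman's rho of 0.19 on log2 CPM, and without Eµ-PRMT5 spleens 1 and 4 r was 0.37.

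**Figure D1:**
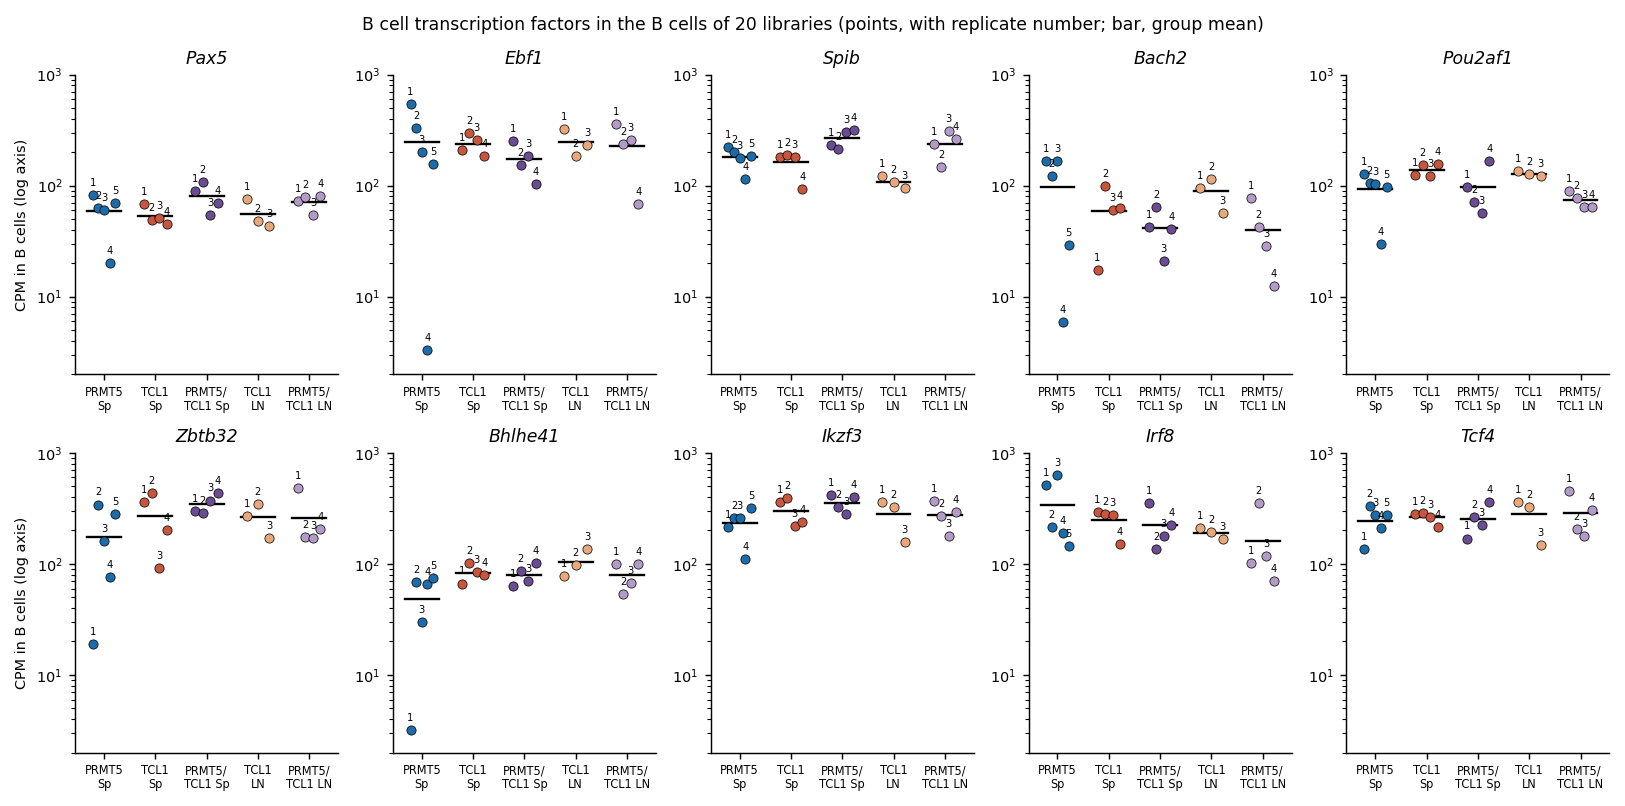
Level of each of the 10 factors in B cells, in CPM on a log axis, with 1 point per library (Sp, spleen, and LN, lymph node) marked with its replicate number and a bar at the group mean. Eµ-PRMT5 spleen 4 lies lowest for Ebf1 at 3.33 CPM and Eµ-PRMT5 spleen 1 lowest for Bhlhe41 at 3.22 CPM, and the Spib points of Eµ-PRMT5/TCL1 mice lie above those of Eµ-TCL1 mice within each tissue.

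The comparisons of genotypes asked whether the factors differ in B cells with the transgene the mice carried. UMI counts were fitted with edgeR's quasi-likelihood test over all genes, with p-values adjusted by the Benjamini-Hochberg method and a call at an adjusted p below 0.05. Differences are log2 fold changes ± SE. Between Eµ-PRMT5 and Eµ-TCL1 spleens 0 of 10 members were called, where 3 of 11541 genes (0.026%) were called. At an unadjusted p below 0.05 edgeR gave 1 member and 1973 genes, and DESeq2, a second count model, called 0 members and 679 genes. The member below 0.05 was Pou2af1, lower in Eµ-PRMT5 spleens by a log2 difference of -0.72 ± 0.29 (adjusted p = 0.239, edgeR). Without Eµ-PRMT5 spleen 4 the Pou2af1 difference was -0.53, and edgeR called 318 genes and 0 members.

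The B-1-like factors had negative estimates in that comparison, -0.73 ± 0.61 for Zbtb32 (95% interval -2.06 to 0.59) and -0.79 ± 0.58 for Bhlhe41 (-2.05 to 0.46). Without Eµ-PRMT5 spleen 1 they were -0.44 and -0.48. Ebf1 had an estimate of -0.12 ± 0.75 (95% interval -1.74 to 1.50), which became 0.19 without spleen 4, and Bach2 one of 0.53 ± 0.69 (-0.96 to 2.01), which became 0.82. All 4 intervals include 0 and are wide. The interval for Pax5 was narrower, -0.63 to 0.69, as was that for Spib, -0.45 to 0.57. For Ikzf3, Irf8 and Tcf4 the estimates ran from -0.49 for Ikzf3 to 0.30 for Irf8 (lowest adjusted p = 0.362, edgeR). The CPM of the groups did not overlap for 0 of 10 members, against 5.01% of genes.

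Comparing the spleens of Eµ-PRMT5/TCL1 with those of Eµ-TCL1 mice, edgeR also called 0 of 10 members, against 0.00866% of genes (1 of 11541), with 1 member and 520 genes at an unadjusted p below 0.05 and 0 members and 21 genes called by DESeq2. Spib, the member below 0.05, was higher by 0.62 ± 0.25 (adjusted p = 1, edgeR). It was also the only member whose CPM did not overlap between these groups, as for 3.28% of genes. Pou2af1 had an estimate of -0.67 ± 0.31 (95% interval -1.34 to 0.01) and Pax5 one of 0.51 ± 0.32 (-0.19 to 1.20). Those of Ebf1, Bach2, Zbtb32, Bhlhe41, Ikzf3, Irf8 and Tcf4 ran from -0.61 for Bach2 to 0.26 for Zbtb32.

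For spleens of Eµ-PRMT5/TCL1 against those of Eµ-PRMT5 mice, 0 of 10 members and 0 genes (0%) were called by edgeR. At an unadjusted p below 0.05 there were 2 members and 1009 genes, and DESeq2 called 0 members and 112 genes. Ikzf3 and Spib were the members, with estimates of 0.62 ± 0.26 and 0.56 ± 0.23 (adjusted p = 0.528 for each, edgeR), and of 0.49 and 0.49 without Eµ-PRMT5 spleen 4. No member was free of overlap, against 1.83% of genes. Pax5, Ebf1, Bach2, Pou2af1, Zbtb32, Bhlhe41, Irf8 and Tcf4 had estimates from -1.14 for Bach2 to 0.99 for Zbtb32 (lowest adjusted p = 0.645, edgeR). The 3 comparisons of spleens share groups with each other and are not independent.

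**Figure D2:**
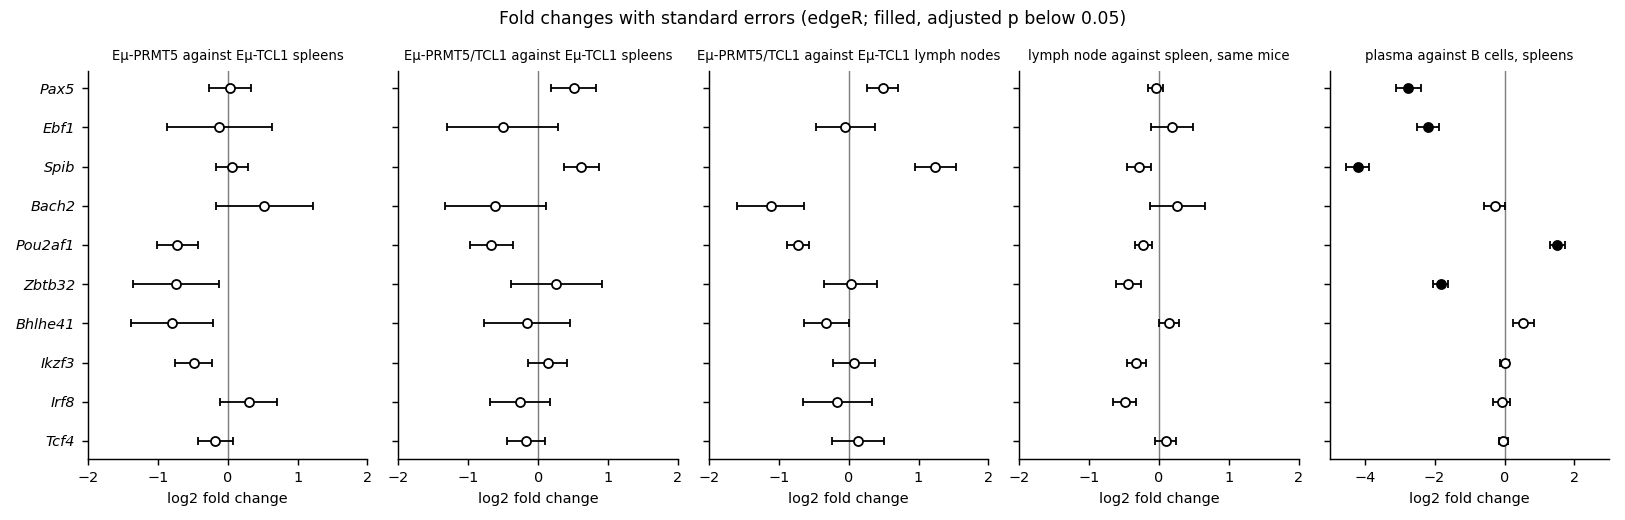
Log2 fold change of each factor (points) with its standard error (bars) from edgeR, in 5 comparisons of genotypes, tissues and cell classes, where filled points passed an adjusted p of 0.05. Filled points stand for Pax5, Ebf1, Spib, Pou2af1 and Zbtb32 in plasma cells against B cells of spleens, and 0 of 10 points are filled in each of the other panels.

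In the lymph nodes DESeq2 called Spib and Pou2af1 between the genotypes with and without the PRMT5 transgene beside TCL1, and edgeR did not. Spib was higher in Eµ-PRMT5/TCL1 nodes by 1.24 ± 0.30 and Pou2af1 was lower, by -0.72 ± 0.16, on the log2 scale, with n = 4 and 3 libraries. By edgeR the adjusted p was 0.580 and 0.549, 0 of 10 members and 0 of 10892 genes (0%) were called, and 3 members and 735 genes had an unadjusted p below 0.05. DESeq2 called 63 genes, among them these 2 members, with a log2 difference of 1.25 for Spib (adjusted p = 0.0199) and -0.72 for Pou2af1 (adjusted p = 0.00738). The groups did not overlap in CPM for these 2 of 10 members, against 6.29% of genes. Over all alternatives the Spib estimate ran from 1.06 to 1.43 and that of Pou2af1 from -0.76 to -0.66. Bach2, the remaining member below 0.05, had an estimate of -1.11 ± 0.48 (adjusted p = 0.732, edgeR), with nodes 2 to 4 of Eµ-PRMT5/TCL1 mice below all 3 Eµ-TCL1 nodes. Pax5 had an estimate of 0.48 ± 0.23 (95% interval -0.03 to 1.00). The estimates of Ebf1, Zbtb32, Bhlhe41, Ikzf3, Irf8 and Tcf4 ran from -0.32 for Bhlhe41 to 0.13 for Tcf4 (lowest adjusted p = 0.917, edgeR). The myeloid marker sum lay between 0 and 552 CPM in the 3 Eµ-TCL1 nodes, and in the 4 Eµ-PRMT5/TCL1 nodes it reached from 0.567 to 3092 CPM. Plasma cell markers in the same B cells together stood at 2320 to 2614 CPM where TCL1 was the only transgene. With both transgenes they spanned 815 to 2904 CPM, a wider range that enclosed the former. Of 8 tested genes of the plasma cell programme edgeR called 0, and 2 had an unadjusted p below 0.05. These were Prdm1 (-1.85 ± 0.40) and Xbp1 (-1.60 ± 0.53), both lower in Eµ-PRMT5/TCL1 nodes (adjusted p = 0.497 and 0.656, edgeR). The median log2 difference of all 8 was -0.21, against 0.02 over all genes. The part of myeloid or plasma cell transcripts in the Spib and Pou2af1 differences was not tested.

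Lymph node and spleen were compared within 7 mice, to ask whether the tissue goes with a shift of the factors in the B cells of one animal. With the mouse as a block, edgeR called 0 of 10 members and 6 of 12367 genes (0.0485%), 3 members and 1408 genes had an unadjusted p below 0.05, and DESeq2 called 0 members and 274 genes. Without Eµ-PRMT5/TCL1 spleen 4 edgeR called 60 genes and 0 members. Irf8 had the lowest adjusted p, with a node minus spleen difference of -0.49 ± 0.16 (adjusted p = 0.274, edgeR). It was lower in the node in 5 of 7 mice. Zbtb32 was lower in the node in 6 of 7 mice, with a difference of -0.44 ± 0.17 (adjusted p = 0.369, edgeR), and Ikzf3 had one of -0.32 ± 0.14 (adjusted p = 0.414, edgeR). No member moved one way in all 7 mice, as 4.58% of genes did. Spib differed by -0.29 ± 0.18 (95% interval -0.67 to 0.10) and Pax5 by -0.05 ± 0.10 (-0.28 to 0.18). Differences of Ebf1, Bach2, Pou2af1, Bhlhe41 and Tcf4 ran from -0.23 for Pou2af1 to 0.26 for Bach2 (lowest adjusted p = 0.509, edgeR).

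Single mice differed from the rest. In Eµ-PRMT5/TCL1 mice Zbtb32 was at 481 CPM in node 1 and 438 CPM in spleen 4 of the same animal, and at 171 and 372 CPM in node 3 and spleen 3 of another. Irf8 was at 355 CPM in node 2 and 353 CPM in spleen 1 of 1 animal. Bach2 differed widely in both directions, at 95.0 CPM in node 1 and 17.3 CPM in spleen 1 of an Eµ-TCL1 mouse, and at 12.4 CPM in node 4 and 63.6 CPM in spleen 2 of an Eµ-PRMT5/TCL1 mouse. The difference between node and spleen was not distinguishable between Eµ-PRMT5/TCL1 and Eµ-TCL1 mice for any member. By edgeR 0 of 10 members and 0 of 12367 genes (0%) were called for it, 0 members and 249 genes had an unadjusted p below 0.05, and DESeq2 called 0 members and 1 gene. The estimates of the 10 members ran from -0.78 for Bach2 to 0.42 for Spib, with an adjusted p of 1 for each by edgeR.

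Plasma cells were set against B cells of the same library to follow the factors across the step at which the B cell state ends. Libraries with at least 20 cells of both classes were 9 spleens and 5 lymph nodes. Because immunoglobulin transcripts took 19.4 to 58.9% of plasma cell UMIs and 0.685 to 5.63% of B cell UMIs, levels in this comparison are CPM of the UMIs outside the immunoglobulin genes. The log2 differences were fitted by edgeR, with its own scaling, to the UMIs of all genes. They need not match the ratios of these levels. In spleens edgeR called 5 of 10 members, as it did 44.2% of 11458 genes, 4 of them lower (21.5% of genes) and 1 higher (22.7%) in plasma cells. The same 5 members were called in lymph nodes, where 27.9% of 10826 genes were called, 13.5% lower and 14.4% higher. The share of members called was close to that of all genes in spleens.

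Pax5 was at 46.4 to 91.1 CPM (median 69.5) in B cells and at 0 to 27.8 CPM (median 5.75) in plasma cells of the 9 spleens. In the 5 nodes it was at 44.8 to 82.4 CPM (median 76.7) in B cells and at 5.92 to 26.9 CPM (median 9.66) in plasma cells. It fell in plasma cells in 9 of 9 spleens and 5 of 5 nodes, with log2 differences of -2.76 ± 0.35 in spleens (adjusted p = 2.64e-05, edgeR) and -2.15 ± 0.36 in nodes (adjusted p = 0.00234, edgeR). The spleen levels rest on 107 plasma cell UMIs in all.

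Ebf1 fell as well. Spleens held it at 105 to 549 CPM (median 216) in B cells and at 12.99 to 156 CPM (median 30.1) in plasma cells, and nodes at 70.2 to 328 CPM (median 239.7) in B cells and at 6.64 to 103 CPM (median 48.9) in plasma cells. The log2 differences were -2.20 ± 0.31 (adjusted p = 6.38e-05, edgeR) and -2.05 ± 0.32 (adjusted p = 0.00189, edgeR), lower in each of 9 and 5 pairs.

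Spib had the largest change of the members. B cells of the spleens held 96.6 to 322.4 CPM (median 189.7) and plasma cells 0 to 27.2 CPM (median 13.9), and in nodes the ranges were 98.4 to 266 CPM (median 123) and 5.43 to 36.8 CPM (median 10.3). The 1 spleen library with no Spib UMI in its 20 plasma cells, Eµ-PRMT5 spleen 2, allows up to 12.99 CPM (3 UMIs, counting error only). The ranges did not overlap, and the log2 differences were -4.20 ± 0.34 in spleens (adjusted p = 4.29e-07, edgeR) and -3.28 ± 0.38 in nodes (adjusted p = 0.000461, edgeR).

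Of the B-1-like factors, Zbtb32 fell. In spleens it was at 19.4 to 448 CPM (median 288) in B cells and at 12.8 to 105 CPM (median 60.5) in plasma cells, and in nodes at 176 to 366 CPM (median 212) in B cells and at 44.4 to 160.3 CPM (median 70.0) in plasma cells. The log2 differences were -1.83 ± 0.22 (adjusted p = 1.33e-05, edgeR) and -1.56 ± 0.14 (adjusted p = 0.000126, edgeR). Bhlhe41 was not called. It was at 3.28 to 103 CPM (median 71.5) in B cells and 34.6 to 139 CPM (median 72.8) in plasma cells of the spleens, a log2 difference of 0.54 ± 0.29 (95% interval -0.08 to 1.16), and the node difference was -0.06 ± 0.12 (-0.33 to 0.21). The spleen value was 0.22 ± 0.18 without Eµ-PRMT5 spleen 1 and 0.32 ± 0.29 without Eµ-PRMT5 spleen 3. Whether Zbtb32 and Bhlhe41 changed differently was not tested.

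Pou2af1 was the 1 member that rose. It was at 98.7 to 171 CPM (median 124) in B cells and at 198 to 529.6 CPM (median 291) in plasma cells of the spleens, and at 66.0 to 137 CPM (median 125) and 138 to 344 CPM (median 265) in those of the nodes. The spleen ranges did not overlap, while Eµ-TCL1 lymph node 1 held 137 and 138 CPM in its B and plasma cells. The log2 differences were 1.51 ± 0.21 (adjusted p = 5.30e-05, edgeR) and 1.22 ± 0.21 (adjusted p = 0.00280, edgeR), higher in 9 of 9 and 5 of 5 pairs. Counted over all UMIs, immunoglobulin included, it was higher in plasma cells in 8 of 9 spleens and 4 of 5 nodes. Of all genes 21.8% moved one way in all 9 spleens and 38.4% in all 5 nodes.

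Bach2, Ikzf3, Irf8 and Tcf4 were not called in either tissue. In spleens the log2 differences were -0.28 ± 0.30 for Bach2 (95% interval -0.93 to 0.37), 0.01 ± 0.13 for Ikzf3 (-0.28 to 0.29), -0.08 ± 0.24 for Irf8 (-0.59 to 0.44) and -0.03 ± 0.12 for Tcf4 (-0.30 to 0.23). In nodes Bach2 was lower in plasma cells in 5 of 5 pairs, with a difference of -0.37 ± 0.15 (adjusted p = 0.102, edgeR). There Ikzf3, Irf8 and Tcf4 had estimates from -0.21 for Tcf4 to 0.34 for Ikzf3 (lowest adjusted p = 0.273, edgeR). Bach2 stood at 17.8 to 169.7 CPM (median 61.4) in B cells and 16.9 to 77.9 CPM (median 47.2) in plasma cells of the spleens. Plasma cells by this rule held Bach2, Ikzf3, Irf8 and Tcf4 transcripts while Pax5 and Spib were low. Ebf1 fell from a higher B cell level and was not below Bach2 throughout. In plasma cells Ebf1 had medians of 30.1 CPM in spleens and 48.9 CPM in nodes, against 47.2 and 45.2 CPM for Bach2.

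The plasma cell rule was checked on genes it did not use. In spleens 8 of 9 tested genes of the plasma cell programme rose and none fell, among them Tnfrsf17, the Bcma receptor (7.51), Xbp1, the secretory regulator (4.24), and Prdm1 (1.76), with a list median of 2.98 against -0.04 over all genes. Irf4 was not called. In CPM of all UMIs, T cell markers summed to 17.9 to 562 CPM in plasma cells and 11.7 to 200 CPM in B cells. The myeloid markers summed to 0 to 3758 CPM in plasma cells. Markers of conventional dendritic cells summed to 0 to 10.0 CPM in plasma cells and 1.36 to 49.7 CPM in B cells. Those of plasmacytoid dendritic cells summed to 20.7 to 323 CPM in plasma cells and 5.52 to 156 CPM in B cells. In plasma cells Cox6a2 reached 302 CPM, Ccr9 72.6, Pacsin1 60.1, Siglech 5.29 and Klk1 4.45 CPM, with Cd209d at 0. Of the B cell markers, Cd22 was at 0 to 14.5 CPM, Ms4a1 at 35.1 to 247 CPM, Cd37 at 40.5 to 319 CPM, H2-Aa at 160.0 to 1359.6 CPM and Ly6d at 307 to 2219 CPM in plasma cells. The part of such mixing in the plasma cell levels, those of Tcf4 and Irf8 included, was not tested. The median of all genes was moved by less than 0.1 by the other scalings tried.

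**Figure D3:**
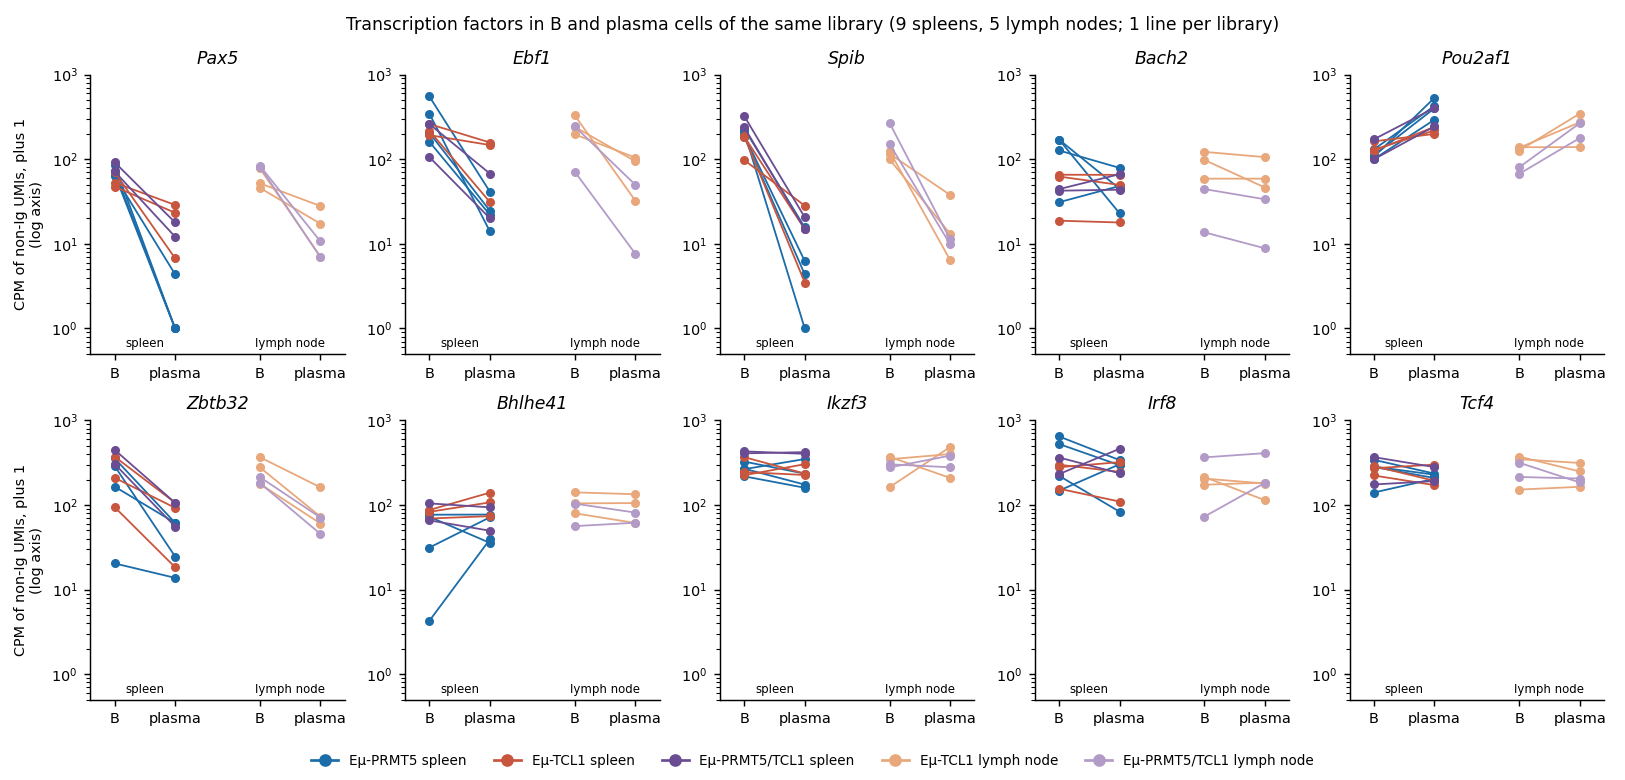
Level of each factor in B cells and plasma cells of the same library, in CPM of the UMIs outside the immunoglobulin genes plus 1 on a log axis, with a line joining the classes of each of 9 spleens and 5 lymph nodes and colours for genotype and tissue. Lines for Pax5, Ebf1, Spib and Zbtb32 run down and those for Pou2af1 run up in every library, though hardly in Eµ-TCL1 lymph node 1.

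Plasma cells themselves were compared between genotypes, with few libraries. Pax5 UMIs numbered 0, 0, 2 and 0 in the plasma cells of Eµ-PRMT5 spleens 1, 2, 3 and 5 (52, 20, 61 and 31 cells), 30, 8 and 9 in Eµ-TCL1 spleens 1, 3 and 4 (443, 31 and 41 cells) and 17 and 41 in Eµ-PRMT5/TCL1 spleens 1 and 4 (177 and 599 cells). Ebf1 was at 40.1, 12.99, 23.5 and 20.99 CPM in the Eµ-PRMT5 and 30.1, 156 and 146 CPM in the Eµ-TCL1 plasma cells. For Pou2af1 the levels were 425, 398, 529.6 and 291 CPM against 218, 239.7 and 198 CPM. The Eµ-PRMT5 plasma cells thus held 2 Pax5 UMIs in all. In the 3 libraries at 0, the limit that a count of 0 allows (3 UMIs) was 5.47, 12.99 and 7.87 CPM respectively, for counting error only. In Eµ-TCL1 spleens 1, 3 and 4 the Pax5 level of plasma cells was 5.75, 27.8 and 22.3 CPM.

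By edgeR 0 of 10 members and 0 of 7682 genes (0%) were called between Eµ-PRMT5 and Eµ-TCL1 plasma cells of spleens, 4 members and 808 genes had an unadjusted p below 0.05, and DESeq2 called 0 members and 66 genes. These members were Ebf1 (-1.99 ± 0.64, adjusted p = 0.326), Pou2af1 (0.92 ± 0.29, adjusted p = 0.320), Bhlhe41 (-0.85 ± 0.36, adjusted p = 0.429) and Pax5, by edgeR, and the Pax5 fold depends on the prior count because 3 of 4 Eµ-PRMT5 libraries held none. Spib, Bach2, Zbtb32, Ikzf3, Irf8 and Tcf4 had estimates from -1.002 for Zbtb32 to 0.27 for Bach2, with a lowest adjusted p of 0.594. Between Eµ-PRMT5/TCL1 and Eµ-TCL1 plasma cells of spleens 0 of 10 members and 0 genes (0%) were called by edgeR, 0 members and 395 genes had an unadjusted p below 0.05, and DESeq2 called 0 members and 7 genes. The estimates of the 10 members ran there from -1.40 for Ebf1 to 0.53 for Ikzf3 (lowest adjusted p = 0.879). In lymph nodes 0 of 10 members and 0 of 8595 genes (0%) were called by edgeR, 2 members and 710 genes had an unadjusted p below 0.05, and DESeq2 called 0 members and 31 genes. Those members were Bach2 (-1.75 ± 0.60) and Irf8 (1.05 ± 0.37), with adjusted p = 0.595 and 0.595 by edgeR. For the other 8 the estimates ran from -1.47 for Ebf1 to 0.04 for Ikzf3 (lowest adjusted p = 0.682, edgeR).

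Heavy chain V genes allowed B cells of one spleen to be split without any member. Cells with at least 3 Ighv UMIs, at least 80% of them of the leading V gene of the library, were set against cells with at most 20% of it, in 6 spleens. EdgeR called 0 of 10 members and 20 of 10347 genes (0.193%), with 0 members and 531 genes at an unadjusted p below 0.05 and 0 members and 27 genes called by DESeq2. The Ighv genes, on which the split was made, stayed in this fit. All 20 genes called by edgeR were lower in the cells with the leading V gene, and leaving out the immunoglobulin genes gave 0. The share of 0.193% is thus no background for the members. Within single spleens the members differed in opposite directions. Pou2af1 was at 81.99, 101, 257, 82.4, 56.7 and 169 CPM in the cells with the leading V gene of Eµ-PRMT5 spleens 3 and 5, Eµ-TCL1 spleen 3 and Eµ-PRMT5/TCL1 spleens 1, 3 and 4. It was at 115, 81.9, 86.3, 92.2, 89.2 and 71.7 CPM in the other cells of the same spleens. In Eµ-PRMT5 spleen 5, Eµ-TCL1 spleen 3 and Eµ-PRMT5/TCL1 spleen 4 it was thus higher in the cells with the leading V gene, and in Eµ-PRMT5 spleen 3 and Eµ-PRMT5/TCL1 spleens 1 and 3 it was lower.

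Bach2 was split as widely. It was at 190.3, 15.1, 41.2, 50.9, 17.8 and 40.5 CPM in the cells with the leading V gene, in the same order of spleens, and at 148, 107, 68.3, 30.7, 78.3 and 42.7 CPM in the others. The gap was widest in Eµ-PRMT5 spleen 5. Pax5 was higher in the cells with the leading V gene in 5 of 6 spleens, with a log2 difference of 0.25 ± 0.14 (95% interval -0.07 to 0.57). In Eµ-PRMT5/TCL1 spleens 1, 3 and 4 the other cells were themselves mostly of 1 V gene, Ighv1-55 with 96.6%, Ighv12-3 with 90.7% and Ighv11-2 with 95.6% of their Ighv UMIs, so that the split set 1 abundant V gene against another. Estimates of Ebf1, Spib, Bach2, Pou2af1, Zbtb32, Bhlhe41, Ikzf3, Irf8 and Tcf4 ran from -0.66 for Bach2 to 0.32 for Pou2af1 (lowest adjusted p = 0.957, edgeR). No member moved one way in all 6 spleens, as 3.04% of genes did.

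The other genes of the programme were read from fixed lists. Between genotypes, between tissues and by V gene, edgeR called none of the tested genes of the 4 lists, which were other B-lineage regulators, surface and signalling genes known as Pax5 or Ebf1 targets, the plasma cell programme and B-1 markers. Between Eµ-PRMT5 and Eµ-TCL1 spleens 8 of 19 regulators had an unadjusted p below 0.05, beside 17.1% of all genes. In plasma cells against B cells of spleens 16 of 19 Pax5 or Ebf1 targets fell and 2 rose, where 21.5% of all genes fell and 22.7% rose, with a list median of -1.81 against -0.04 over all genes. The largest falls were those of Cd22, an inhibitory receptor (-3.34), Fcer2a (-3.16), Cd72, another inhibitory receptor (-3.08), Bank1, a B cell receptor adaptor (-3.06), Siglecg, a Siglec of B cells (-2.84), and Cxcr5, the follicular homing receptor (-2.50). Vpreb3 (0.99) and the adaptor Blnk (0.54) rose. Fcer2a was low in the B cells of most libraries, with a median of 0.566 CPM over all 20 and 174 CPM in Eµ-PRMT5 spleen 1. In nodes 15 of these 19 fell and 0 rose, beside 13.5% and 14.4% of genes, with a median of -1.52 against -0.07 over all genes.

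Of the other regulators 11 of 19 fell and 1 rose in spleens, beside 21.5% and 22.7% of all genes. Klf2, a quiescence and homing factor (-2.79), Bcl11a (-2.28), Id3, an inhibitor of E proteins (-1.79), Ets1 (-1.10) and Ikzf1, the Ikaros factor (-0.90), had the largest falls, and Tcf12, an E protein, rose (0.85). Nodes had 9 that fell and 1 that rose, Gfi1 (0.76), against 13.5% and 14.4% of genes. Of 8 B-1 markers 3 rose in the plasma cells of spleens, namely Ctla4 (2.33), Spn (1.61) and Cd9 (0.61), and 3 fell, namely Cd300lf (-2.35), Plac8 (-1.60) and Bhlhe40 (-0.74), beside 22.7% and 21.5% of all genes. In nodes 2 of 7 tested rose and 3 fell.

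Genes whose level followed each member across B cells of the 13 spleens were ranked by Pearson's r on log2 CPM among 5647 genes. The closest for Pax5 were Sppl2a (r 0.95), Stk4 (0.91) and Prkacb (0.89), and these were 0.89, 0.82 and 0.78 without Eµ-PRMT5 spleen 4. For Ebf1 they were Hook3 (0.95), Gm26740 (0.95) and Kmt2c (0.94), and these were 0.71, 0.53 and 0.71 without Eµ-PRMT5 spleen 4. Spib was followed by Ptpn6, the phosphatase Shp1 that acts behind inhibitory receptors (0.91, and 0.92 without that spleen), Nin (0.81) and Fam43a (0.81). Bach2 was followed by Btbd7 (0.94), Mtmr3 (0.93) and the E protein gene Tcf12 (0.93), and Pou2af1 by Ttpal (0.94), Gm8369 (0.87) and Serinc3 (0.87), which without Eµ-PRMT5 spleen 4 were 0.88, 0.70 and 0.69. These values describe 13 libraries that differ in genotype and depth.

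Bhlhe41 was followed by Rbm47, Ahnak2 and 1810046K07Rik (r 0.96, 0.95 and 0.95), and without Eµ-PRMT5 spleen 1 these values were 0.63, 0.66 and 0.81. Zbtb32 was followed by AI427809, Nid1 and Gpr137b (0.95, 0.94 and 0.94), and without that spleen by 0.83, 0.86 and 0.89. For Ikzf3 the closest were Pik3c2b, Rasgrp1 and Wdfy4 (0.94, 0.92 and 0.92), for Irf8 Nom1, Fubp1 and Cwc22 (0.83, 0.83 and 0.80), and for Tcf4 Zfp703, Pwp1 and Cd300lf (0.84, 0.84 and 0.82). Without Eµ-PRMT5 spleen 1 the values for Tcf4 were 0.58, 0.64 and 0.42. The likeness of Bhlhe41 and Tcf4 to these genes thus rests in part on 1 spleen.

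**Figure D4:**
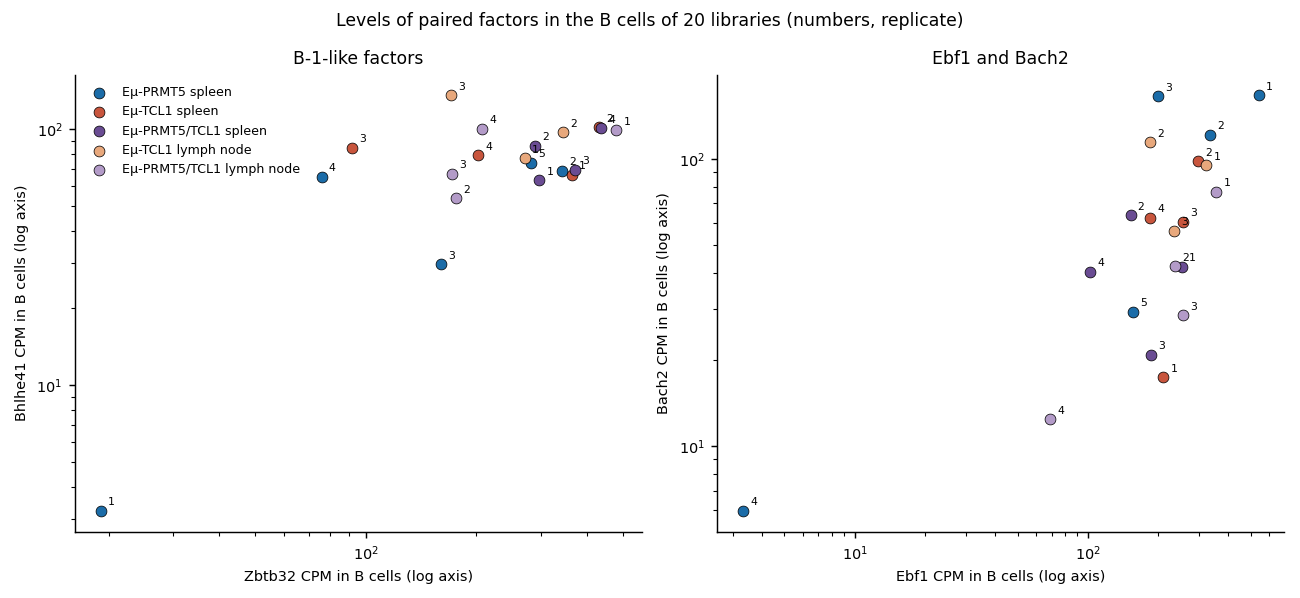
CPM in B cells of the 20 libraries on log axes, Zbtb32 (horizontal) against Bhlhe41 on the left and Ebf1 (horizontal) against Bach2 on the right, with 1 point per library coloured by group and marked with its replicate number. Eµ-PRMT5 spleen 1 lies alone at 3.22 CPM of Bhlhe41 and Eµ-PRMT5 spleen 4 alone at 3.33 CPM of Ebf1.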

How the data were processed

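The deposited files were counts of UMIs for each gene and droplet barcode, 1 unfiltered matrix per library from 10x Genomics 3′ v2 libraries. The authors made them with Cell Ranger on GRCm38. The submitters' processing notes give version 2.0.1 and Seurat 2.2.1, and the matrix headers give 3.1.0. Barcodes were kept above 10% of the 99th percentile of the 3000 largest, if they held 200 genes or more and no more than 10% of UMIs from mitochondrial genes, and expected doublets (0.8% per 1000 cells) were removed by Scrublet score (scanpy 1.11.5, Python 3.11.15). UMIs were summed per library and class and tested with edgeR 4.0.16 (TMM, filterByExpr, quasi-likelihood, Benjamini-Hochberg over all genes tested), with mouse or library as a block where classes or tissues of 1 animal were compared. Without a block the p-values measure the spread between libraries of separate mice. With a block they measure how far the differences within a library or mouse vary from one to the next. The 95% intervals use the t distribution of each fit. Fits of B cells between Eµ-PRMT5 and Eµ-TCL1 spleens, between genotypes in nodes, and of plasma against B cells in spleens were run on simulated counts. These counts were drawn around 1 mean per gene, without mouse effects or outlying libraries, so they cannot show how the fits bear those. Limits for a count of 0 cover counting error only.

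The 10 members, the gene lists and the tests were chosen with earlier results of these data known. 1 gene of the lists is not reported here. The rule took all 10 members in every comparison, and those not described singly are given by the range of their estimates. Of the lists, genes called are named, at most the 6 with the largest log2 change and at least 20 CPM in 1 class, and genes most like a member are the 3 with the highest r. Alternatives were DESeq2 1.42.0, relative log expression scaling, no filter on low counts, immunoglobulin genes left out, doublets kept, stricter gates, other cell minimums, a replicate block or none, the Xist level as a covariate, the compared groups alone, stricter V gene shares, lymph nodes in place of spleens, and each library left out in turn. The Cd79 to Cd3 ratio gate was added after seeing the data. The labels give each spleen a replicate number, and the deviations of same-numbered spleens of different groups correlated at -0.06 to 0.17 over 12 pairs, so that numbers were not used as pairs. For both tissues of 1 mouse, tied by the mouse number in the labels, the correlation was 0.26 to 0.62 over 7 pairs.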

Additional observations from a re-analysis of the deposited data

Results flagged for a closer look

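Of 50 sets of 4 or 5 libraries (10 factors, by group, in B cells or plasma cells), 5 held a library far from the rest of its group by Dixon's 95% limit, where chance marks about 5 percent of such sets. In B cells Spib was at 93.5 CPM in Eµ-TCL1 spleen 4, below 181 to 189 CPM in the other Eµ-TCL1 spleens. Irf8 was at 149.7 CPM in the same spleen, below 274 to 291 CPM in the others. Zbtb32 was at 481 CPM in Eµ-PRMT5/TCL1 lymph node 1, above 171 to 208 CPM in the other nodes of that genotype. Irf8 was at 355 CPM in Eµ-PRMT5/TCL1 lymph node 2, above 70.3 to 118 CPM in the others. In plasma cells Pax5 was at 1.53 CPM of all UMIs in Eµ-PRMT5 spleen 3, from 2 UMIs, with 0 in the other 3 Eµ-PRMT5 spleens, so that this value stands for very few molecules. None of these was explained or tested further.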

How the results depend on the processing

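Over 12 comparisons the number of the 10 factors called was the same or within 1.5 times under 216 of 218 alternatives. The 2 exceptions were 2 factors called (Spib and Pou2af1) by DESeq2 between Eµ-PRMT5/TCL1 and Eµ-TCL1 lymph nodes, and 1 factor called (Ebf1, log2 difference -1.98, adjusted p = 0.0296, edgeR) without a filter on low counts between Eµ-PRMT5 and Eµ-TCL1 plasma cells of spleens. The cause was not tested. Between plasma and B cells 5 of 10 factors were called under all 21 settings run in spleens and all 17 in nodes, the main one and each library left out included. No called factor turned its direction.

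Counts over all genes moved more. DESeq2 called 679, 21 and 112 genes in the 3 spleen comparisons (edgeR 3, 1 and 0), 63 in lymph nodes (0), 274 between tissues (6), 1 for the difference of the tissue effect (0), and 66, 7 and 31 between plasma cells (0). Without a filter on low counts edgeR called 83 genes between tissues, 4 for the difference of the tissue effect, 67 by V gene (20), and 181, 14 and 1 between plasma cells. Leaving out the immunoglobulin genes gave 0 by V gene, lymph nodes gave 11, the ratio gate gave 1, 0 and 11 in the first 2 spleen comparisons and between tissues, the stricter B cell gate gave 0 in the second and the stricter plasma cell gate 3 in nodes. The compared groups alone gave 1 gene in the first, and the Xist covariate 1 and 0. Leaving out each library gave 1 to 318 genes between Eµ-PRMT5 and Eµ-TCL1 spleens (318 without Eµ-PRMT5 spleen 4, 69 without Eµ-PRMT5 spleen 5 and 9 without Eµ-TCL1 spleen 1), 0 to 1 and 0 to 3 in the other 2 spleen comparisons, 0 to 11 in nodes (11 without Eµ-TCL1 lymph node 1), 0 to 60 between tissues (60 without Eµ-PRMT5/TCL1 spleen 4) and 10 to 26 by V gene.

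With the replicate number as a block edgeR called 41, 0 and 4 genes in the 3 spleen comparisons and 79 between Eµ-PRMT5 and Eµ-TCL1 plasma cells, and 0 factors in each. Without the mouse or library as a block 5 of 10 factors were called between plasma and B cells in either tissue, with 3161 and 1288 genes in place of 5064 and 3019, and 0 factors between tissues or by V gene, with 2 and 0 genes. The block could not be fitted for plasma cells of lymph nodes. The smallest plasma cell library tested held 20 cells, which limits its counts.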
